A study of Mus musculus with 400 samples.

Results

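The genes described here are 10 genes of the G1 decision, read in 380 single cells sorted for high Lgr5 from mouse small intestine. They are the D cyclins Ccnd1, Ccnd2 and Ccnd3, the kinases Cdk4 and Cdk6, the kinase inhibitors Cdkn1a, Cdkn1b and Cdkn2c, and the pocket proteins Rb1 and Rbl2. They were chosen by name from the 33496 genes of the deposited count table, and all 10 were in it. Of 400 cells, 380 had at least 10000 counts and were used.

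D cyclins are made in response to growth signals, bind Cdk4 or Cdk6 and switch these kinases on. The active kinases phosphorylate the pocket proteins, which then let go of E2F transcription factors, and E2F targets carry the cell into S phase. Inhibitors hold this step back: Cdkn2c (p18) binds Cdk4 and Cdk6 themselves, while Cdkn1a (p21, a target of p53) and Cdkn1b (p27) act on cyclin and kinase complexes. In the intestinal crypt, stem cells marked by Lgr5, a receptor for R-spondins, divide often, and Myc is known there as a target of Wnt signalling.

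The cells came from mice labelled Lgr5 GFP/+, in which 1 Lgr5 allele carries a green fluorescent protein, and the labels call them intestinal stem cells. Crypts of the duodenum and jejunum were dissociated and sorted by flow cytometry, and a microfluidic chip was used to capture them singly. All cells share the genotype, tissue and sort. The labelled allele is Lgr5::EGFP-IRES-Cre-ERT2. Tamoxifen for lineage tracing and Cyp1a1::H2B-YFP mice are also named, without saying whether these cells had either. The labels name no animal or age for any cell, so the cells form 1 sample, cells are not replicates, and no test or p-value was computed.

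Titles number the cells by set, 1 to 10, with 40 cells in each. These library sets were treated as technical, and every SD given is over them. A cell had 10766 to 70133 counts (median 32112), and each set kept 36 to 39 cells. The stem cell label was checked against 12 marker genes, of which 10 had a count in at least 90% of cells. Lgr5 had one in 97.9% of cells. Markers of other cells were also read, and enteroendocrine markers had a median share of 5.26% of cells. Counted in at least 90% of cells were 4 of 8 Paneth, 3 of 12 enterocyte and 2 of 8 immune markers. The most counted tuft marker was in 85.5% of cells and the most counted goblet marker in 84.2%. No list of other cell types was wholly at 0, and doublets were not removed. No gene exceeded 36 counts in any cell, and for each of the 6 genes with a mean of at least 25 the variance over cells was smaller than the mean, so counts near the top may be compressed.

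The kinase pair held a promoter sequence feature that the windows of Ccnd3, the inhibitors and Rbl2 did not. RefSeq (GRCm38.p6) gave a window for 7 of the 10 genes, and none for Ccnd1, Ccnd2 and Rb1. The 250 bases before the start site were searched for CACGTG, the E-box that Myc with its partner Max is known to bind. It is its own reverse complement, so 1 search covers both strands. The motif stood before 2 of the 7 genes, Cdk4 and Cdk6, whose windows are shown for that reason with the motif in capitals. Ccnd3, Cdkn1a and Cdkn2c each had more than 1 window, none with the motif. The share over all windows given below counts windows and not genes. Both genes lie on the plus strand, at chr10:127063285-127063534 for the Cdk4 window and chr5:3343643-3343892 for the Cdk6 window.
Cdk4: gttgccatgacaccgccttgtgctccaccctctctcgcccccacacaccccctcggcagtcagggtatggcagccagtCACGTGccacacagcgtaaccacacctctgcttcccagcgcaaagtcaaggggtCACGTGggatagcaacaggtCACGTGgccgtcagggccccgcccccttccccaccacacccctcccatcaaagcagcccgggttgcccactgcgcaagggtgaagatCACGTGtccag
Cdk6: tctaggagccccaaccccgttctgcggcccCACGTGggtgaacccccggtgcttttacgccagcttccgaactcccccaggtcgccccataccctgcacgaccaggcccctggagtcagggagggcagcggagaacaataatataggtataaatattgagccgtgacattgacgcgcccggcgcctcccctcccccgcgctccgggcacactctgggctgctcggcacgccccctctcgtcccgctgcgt
Of the 4 Cdk4 copies the nearest began 11 and 98 bases before the start site, and the Cdk6 copy began 220 bases before its own. The Cdk6 window lies inside the gene as GENCODE places it, beginning at chr5:3341485, so this distance holds for the RefSeq start only. Over 32851 windows of this length, 6.02% held the motif at least once and 7 windows, or 0.0213%, held at least 4 copies. A match is a description of these letters and not evidence of binding.

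The kinases and Ccnd2 were counted in nearly every cell, and the inhibitors in far fewer. Ccnd2 had a count in 380 of 380 cells, which puts the share at 99.03% or more (exact 95% binomial interval, counting error only). Cdk4 was counted in 99.7% of cells (98.5 to 99.99%) and Cdk6 in 99.5% (98.1 to 99.9%). Ccnd1 was counted in 91.8% (88.6 to 94.4%) and Ccnd3 in 90.5% (87.1 to 93.3%). These are the genes of the engine, and each was present in at least 9 of 10 cells.

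Pocket proteins and brakes followed. Rb1, the founding pocket protein, was counted in 67.4% of cells (62.4 to 72.1%). Cdkn1b was counted in 56.1% (50.9 to 61.1%), and Rbl2 (p130), the pocket protein best known from resting cells, in 41.8% (36.8 to 46.98%). Cdkn2c had a count in 41.1% of cells (36.1 to 46.2%) and Cdkn1a in 21.1% (17.1 to 25.5%). A share of cells with a count depends on depth and on stray RNA. Genes that gut epithelium should lack gave shares between 0.263% (the T cell gene Cd8a) and 44.5% (the endothelial gene Pecam1), with 16.6% for the heart gene Myh6 and 4.21% for the liver gene Alb. The shares of Cdkn1a, Cdkn2c and Rbl2 lie inside that range, so by themselves they do not show expression. Thinning each cell to 19169 counts, the 10th percentile of totals, left out 38 cells and gave 15.2% for Cdkn1a, 32.8% for Cdkn2c, 32.5% for Rbl2, 46.03% for Cdkn1b and 53.7% for Rb1. The same thinning gave 81.02% for Ccnd3, 86.4% for Ccnd1, 97.2% for Cdk4, 98.5% for Cdk6 and 99.8% for Ccnd2.

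**Figure D1:**
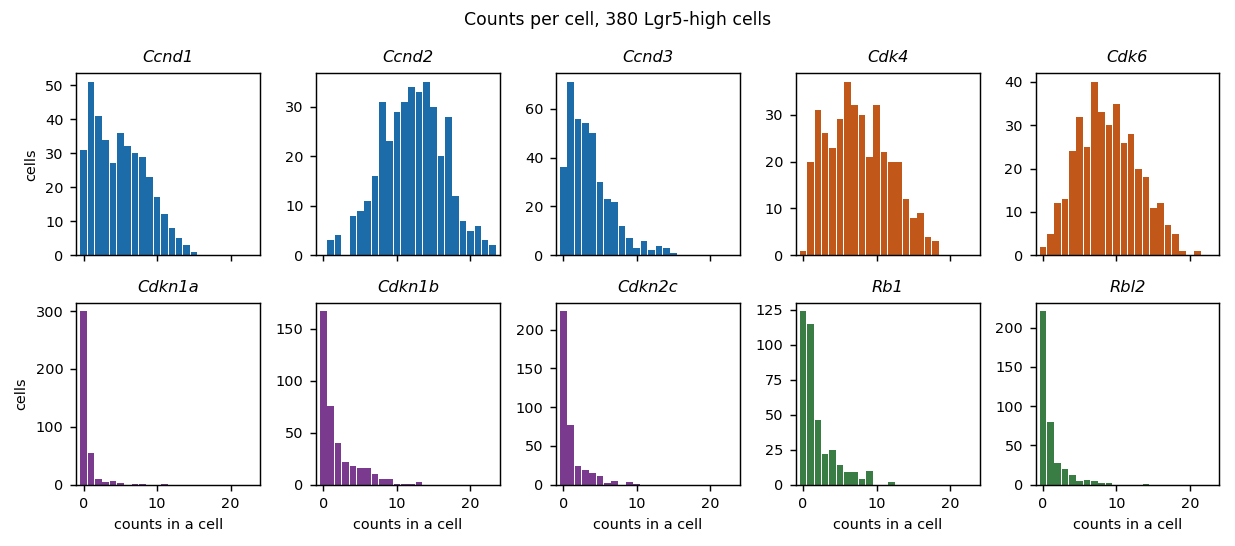
Number of cells (y) by deposited count (x, counts per cell) for each of the 10 genes in 380 cells; the y scales differ between panels. Ccnd2, Cdk4 and Cdk6 peak away from 0, with medians of 12, 7 and 9 counts, while Cdkn1a, Cdkn2c and Rbl2 peak at 0.

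Levels were read as CPM, the usual depth-scaled count, averaged over cells. Of the D cyclins, Ccnd2 averaged 391.4 ± 27.3 CPM (SD over 10 library sets), with set means from 368.5 in set 2 through a median of 381.2 to 458.2 in set 4. Ccnd1, the D cyclin best known as a growth factor target, averaged 153.5 ± 37.3 CPM, with set means from 111.6 in set 10 through a median of 149.4 to 236.9 in set 8. Ccnd3 averaged 115.7 ± 10.9 CPM, and its set means ran from 95.99 in set 2 through 119.3 to 129.1 in set 4. Relative to its mean, Ccnd1 spread more over sets than Ccnd2 or Ccnd3.

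Of the kinases, Cdk6 averaged 284.98 ± 24.7 CPM, from 257.2 in set 3 through a median of 283.7 to 326.2 in set 10. Cdk4 set means had an SD of 26.5 CPM and ran from 197.6 in set 6 through 239.9 to 268.7 in set 7. No set stood far from the others for the mean level of either kinase.

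Brakes and pocket proteins had fewer counts. Cdkn1b, the most counted of the 3 inhibitors, averaged 57.7 ± 17.8 CPM, from 22.9 in set 8 through a median of 60.7 to 79.5 in set 6. Cdkn2c averaged 27.6 ± 9.74 CPM, from 13.6 in set 6 through 25.3 to 46.9 in set 1. Cdkn1a averaged 12.2 ± 8.60 CPM, from 2.58 in set 4 through 11.2 to 27.5 in set 10, and its share of cells ran from 7.69% to 40.5% across sets. For all 3 the set means spread widely, and no set was highest for more than 1 of them. Rb1 averaged 56.4 ± 10.2 CPM, from 38.4 in set 5 through 56.6 to 71.4 in set 8. Rbl2 averaged 30.01 ± 13.5 CPM, from 15.2 in set 2 through 23.4 to 52.2 in set 7. Relative to its mean, Rbl2 spread more over sets than Rb1.

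**Figure D2:**
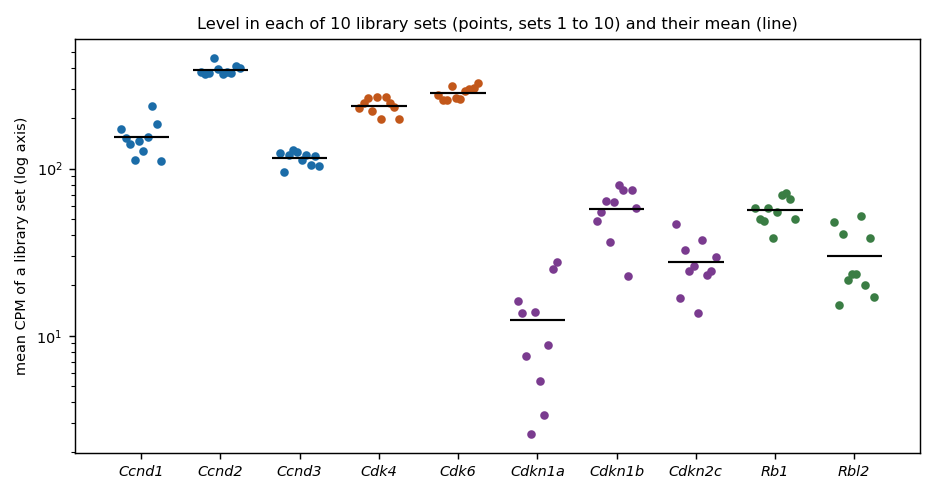
Mean CPM (y, log scale) of each gene (x) in each of the 10 library sets (points, left to right set 1 to 10), with a line at the mean over sets. Ccnd2 set means lie between 368.5 and 458.2 CPM, and those of Cdkn1a spread from 2.58 to 27.5 CPM.

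Levels of different genes are compared here as CPM per kb of annotated exon, which holds only if reads cover whole transcripts. The sources used here do not state whether they do, so the order per kb is conditional. Without division by length the order differs: Ccnd2 and Cdk6 had a higher mean CPM than Cdk4. Per kb Cdk4 was highest at 73.3 CPM per kb, and above Ccnd2 at 41.6 in 10 of 10 sets. Ccnd2 and Ccnd1, at 32.6 CPM per kb, differed by 8.92, which is less than the SD of that difference over sets (9.31), although Ccnd2 was higher in 9 of 10. Cdk6, a gene with a long transcript, came next at 20.4 CPM per kb, below Ccnd1 in 10 of 10 sets and above Ccnd3 at 13.2 in 10 of 10. From Ccnd3 through Cdkn1b at 12.7 and Cdkn2c at 10.3 to Rb1 at 9.38 CPM per kb, no step to the next gene exceeded the SD. Rb1 exceeded Rbl2, at 3.97 CPM per kb, in 10 of 10 sets, and Rbl2 and Cdkn1a, at 3.44, did not differ beyond the SD. With the longest transcript in place of all exons, Ccnd3 at 29.98 CPM per kb stood above Cdk6 at 24.7, so the order of that pair depends on the transcript that is counted.

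Where the genes lie bears on how far their counts can be trusted. In GENCODE M21 (build GRCm38) the D cyclins are at chr7:144929931-144939925 (Ccnd1, minus strand), chr6:127125162-127152193 (Ccnd2, minus) and chr17:47505051-47599691 (Ccnd3, plus). Cdk4 is at chr10:127063534-127067920 and Cdk6 at chr5:3341485-3531008, both plus. The inhibitors are at chr17:29090976-29100727 (Cdkn1a, plus), chr6:134920401-134925513 (Cdkn1b, plus) and chr4:109660876-109667189 (Cdkn2c, minus), and the pocket proteins at chr14:73183673-73325822 (Rb1, minus) and chr8:91070057-91123844 (Rbl2, plus). Exons of 8 of the 10 genes overlap exons of a gene on the opposite strand, such as Tspan31 for Cdk4 and Bysl for Ccnd3, while Cdkn1b and Cdkn2c have no such overlap. The use of strand in counting is not given in the sources used here, so counts of those 8 genes can include the partner's.

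Within a cell, Ccnd2 usually had the most counts of the D cyclins. It exceeded Ccnd1 in 92.6% of 380 cells (exact 95% interval 89.5 to 95.05%), and Ccnd1 exceeded Ccnd2 in 17 cells. Ccnd3 exceeded both others in 10 cells. Of all D cyclin counts, 58.6% were of Ccnd2 (set range 52.99 to 64.4%), 23.9% of Ccnd1 (18.4 to 32.3%) and 17.5% of Ccnd3 (14.5 to 19.3%). The summed counts of Ccnd2 were 2.45 times those of Ccnd1 (counting interval 2.32 to 2.58), and this ratio ran from 1.64 to 3.46 over sets. Per kb the same ratio was 1.23 (0.820 to 1.73 over sets), which again holds only if reads cover whole transcripts.

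Most cells held several D cyclins and both kinases. All 3 D cyclins had a count in 82.9% of 380 cells, and 0 of 380 cells lacked all of them, which allows a share of up to 0.966%. Both kinases had a count in 99.2% of cells. Cdk6 exceeded Cdk4 in counts in 58.4% of cells and Cdk4 exceeded Cdk6 in 33.4%, and per kb the summed counts of Cdk4 were 3.68 times those of Cdk6 (sets 2.67 to 4.40).

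Brakes were spread thinly over cells. None of the 3 inhibitors had a count in 81 cells (21.3%), 1 had in 44.2%, 2 had in 29.5% and all 3 had in 19 cells (5.00%). Rb1 or Rbl2 had a count in 80.3% of cells, and both had one in 110 cells (28.9%). A cell held a median of 7 of the 10 genes, with a range of 4 to 10.

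Variation from cell to cell was that of genes counted as often. The Fano factor is the variance over the mean of depth-scaled counts, here scaled to 19169 per cell. Scaling down lowers it, so a value below 1 does not mean less spread than counting error gives. It was 0.661 for Ccnd2, 0.853 for Cdk6, 1.09 for Cdk4, 1.299 for Ccnd1 and 1.48 for Ccnd3. For the rarer genes it was 1.44 for Rb1, 1.49 for Cdkn2c, 1.70 for Rbl2, 1.86 for Cdkn1a and 1.90 for Cdkn1b. All 10 lay between the 5th and 95th percentiles of genes of like mean, from the 20.96th percentile for Rb1 to the 86.9th for Cdkn1b. The Cdkn1a value was 1.56 without set 9.

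To set the genes against the cell cycle, cells were ranked by 3 scores over other genes, an S phase score (41 genes), a score of G2 and M phases (54 genes) and the sum of both. Each score is the mean log2(count + 1) at 19169 counts per cell, over the cells of at least that depth. Cells were split by each score into 3 equal groups, and the highest was set against the lowest. A ratio is log2 of the mean CPM in the high-scoring over the low-scoring cells, with 1 CPM added, and 1.5-fold marks a large one. The median ratio over all genes was -0.12 for the S score, -0.19 for the G2 and M score and -0.17 for the sum. Total counts moved with the scores, with medians of 35807 in high-scoring and 31843 in low-scoring cells by S score, 35011 and 28486 by G2 and M score, and 36484 and 29958 by the sum. The part of depth in the ratios was examined with the 3 groups drawn within each of 10 bins of total counts, a choice made after seeing the data. Those ratios stand beside the results of Cdk4 and Ccnd3 only.

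By the sum of both scores, Cdk4 was the only one of the 10 genes whose ratio over all sets was larger than its SD over sets. The SD is that of ratios computed within sets. For Rbl2 the mean of those was -1.12 with an SD of 1.10, although its ratio over all sets was within the SD. Cdk4 means ran from 219.8 through a median of 245.5 to 335.6 CPM over sets in high-scoring cells, and from 154.6 through 189.4 to 225.1 CPM in low-scoring cells. The ranges overlap at their edges, and high-scoring cells were higher in 10 of 10 sets. Over all sets Cdk4 averaged 269.1 CPM in high-scoring and 188.1 CPM in low-scoring cells, a log2 ratio of 0.51 with an SD of 0.22 over sets, and 253.5 CPM in the middle group. This is below 1.5-fold, and 87.05% of all genes had a lower ratio. Within bins of total counts it was 0.44.

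By S score, Cdk4 averaged 273.7 CPM in high-scoring and 201.4 CPM in low-scoring cells (log2 0.44, SD 0.35, higher in 9 of 10 sets). By G2 and M score it averaged 259.9 and 204.7 CPM (log2 0.34, SD 0.31, higher in 7 of 10 sets), and within bins of total counts the ratios were 0.42 and 0.27. These ratios lie close to their SD. The ratio by G2 and M score was below its SD within bins, with 2 equal groups (0.25), without set 10 (0.25), with groups drawn within each set and without the 5% of cells with the most genes (0.30 for both). The ratio by S score was below its SD with 2 equal groups (0.31) and with thinning to the 25th percentile of totals (0.33). Stromal and endothelial markers were lower in high-scoring cells by each score (0 of 5 genes of either list higher), and by the sum goblet (1 of 8), tuft (1 of 7) and enteroendocrine (1 of 6) markers were mostly lower too. Their part in the Cdk4 values was not tested. The Cdk6 ratio was -0.11 by S score, -0.03 by G2 and M score and -0.11 by the sum, each within its SD over sets. Of the counts of both kinases, 50.1% were of Cdk4 in high-scoring cells by the sum (48 to 52.2%) and 39.9% in low-scoring cells (37.5 to 42.3%), with a higher share in 9 of 10 sets.

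Ccnd1 and Ccnd2 stayed within their SD over sets by every cycle score. By the sum, Ccnd2 averaged 354.4 CPM in high-scoring and 384.9 CPM in low-scoring cells (log2 -0.12, SD 0.22), and Ccnd1 averaged 152.02 and 146.4 CPM (log2 0.05, SD 0.54). By S score the ratios were 0.02 for Ccnd2 and 0.06 for Ccnd1. With 1 sample this does not show that their levels are equal along the cycle.

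Ccnd3 took opposite directions by the 2 scores. By G2 and M score its set means ran from 65.96 through 102.9 to 127.9 CPM in high-scoring cells, against 97.1 through 134.1 to 165.2 CPM in low-scoring cells, and high-scoring cells were lower in 10 of 10 sets. Over all sets it averaged 99.7 CPM in high-scoring and 131.1 CPM in low-scoring cells, a log2 ratio of -0.39 (SD 0.33), while the median of all genes was -0.19 and 42.6% of genes had a lower ratio. By S score it averaged 138.9 CPM in high-scoring and 108.8 CPM in low-scoring cells (log2 0.35, SD 0.54), higher in 8 of 10 sets and within the SD. Within bins of total counts the ratios were -0.30 by G2 and M score, smaller than the SD, and 0.43 by S score. With 2 equal groups (-0.32) and without set 4 (-0.31) the G2 and M ratio was also smaller than the SD. By G2 and M score 0 of 8 Paneth markers (summed 1394 CPM in high-scoring and 1587 CPM in low-scoring cells) and 1 of 8 goblet markers (311.04 and 423.8 CPM) were higher, and their part in the Ccnd3 values was not tested. Ccnd3 made up 15.9% of D cyclin counts in high-scoring cells by G2 and M score and 19.3% in low-scoring cells. This difference of -3.39 points was within its SD over sets of 3.68, with a higher share in 2 of 10 sets.

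**Figure D3:**
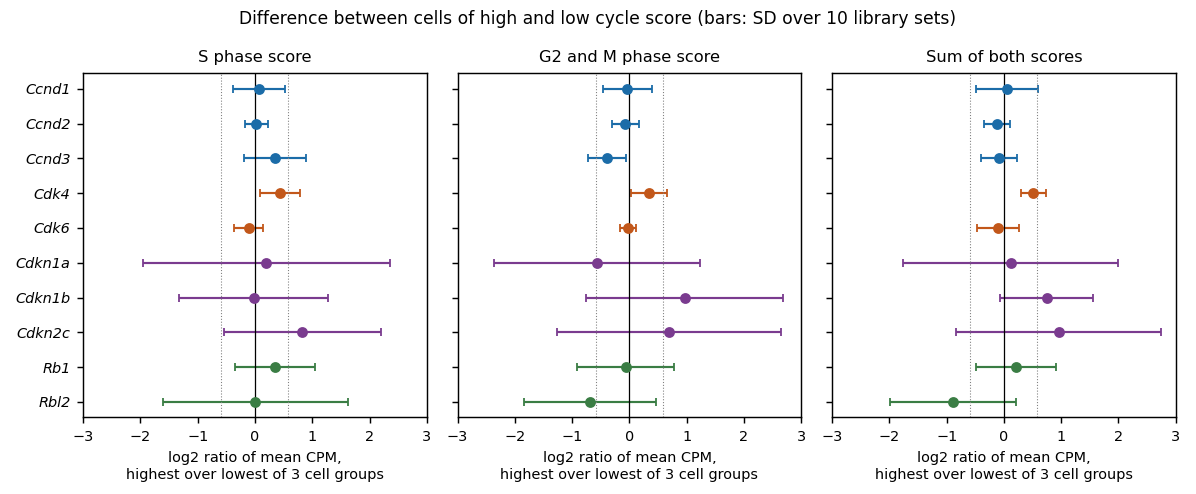
Log2 ratio of mean CPM in high-scoring over low-scoring cells (x) for each gene (y), 1 panel per cycle score; bars are the SD over 10 library sets and dotted lines mark 1.5-fold. By the sum of both scores Cdk4 stands at 0.51 with the bar clear of 0, while the bars of Cdkn1a, Cdkn2c and Rbl2 are wide and cross 0.

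Among the inhibitors and pocket proteins the ratios were larger but not steady. By S score 1 of the 10 genes passed 1.5-fold, where 37.5% of all genes did. It was Cdkn2c, at 39.2 CPM in high-scoring and 21.7 CPM in low-scoring cells (log2 0.82, SD 1.37, higher in 8 of 10 sets). By G2 and M score 3 of 10 passed, where 46% of all genes did. Cdkn1b averaged 68.4 and 34.5 CPM (log2 0.97, SD 1.72) and Cdkn2c 36.3 and 22.05 CPM (log2 0.70, SD 1.95), each higher in 6 of 10 sets. Rbl2 averaged 20.7 CPM in high-scoring and 33.99 CPM in low-scoring cells (log2 -0.69, SD 1.15). By the sum 3 of 10 passed, where 48.4% of all genes did. The pooled share of these genes lies below that of all genes by each score, but most genes past 1.5-fold were lower. Past 1.5-fold higher were 1 of the 10 genes by S score, 2 by G2 and M score and 2 by the sum. All genes gave 6.69%, 9.01% and 10.1%. Lower were 0, 1 and 1 of the 10, where 30.8%, 37.0% and 38.2% of all genes were. Each of these counts rests on few genes.

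By the sum, Rbl2 set means ran from 6.24 through 17.3 to 61.7 CPM in high-scoring cells and from 14.4 through 39.3 to 80.3 CPM in low-scoring cells. The groups overlapped, and high-scoring cells were higher in 1 of 10 sets. Rbl2 averaged 21.8 CPM in high-scoring and 41.1 CPM in low-scoring cells (log2 -0.89, SD 1.10). Cdkn2c averaged 38.7 and 19.5 CPM (log2 0.95, SD 1.79) and Cdkn1b 65.99 and 38.8 CPM (log2 0.75, SD 0.81), each higher in 8 of 10 sets. All 3 ratios over all sets are within the SD over sets. Under other settings of the processing the ratios came as close to 0 as 0.46 for Cdkn2c, 0.49 for Cdkn1b and -0.53 for Rbl2. Each of these is within 1.5-fold. Cdkn2c also had a Spearman rho of 0.23 with total counts over cells. Groups drawn within bins of total counts were among those other settings, under which its ratio ran from 0.46 to 0.95. The part of depth in the Cdkn2c ratio was not tested further. Cdkn1a and Rb1 showed 0.12 and 0.21 by the sum. Markers of other cells moved with the score. Of 8 goblet markers 1 was higher in high-scoring cells (summed 311.5 CPM in high-scoring and 458.6 CPM in low-scoring cells), of 7 tuft markers 1 (144.9 and 203.8 CPM) and of 6 enteroendocrine markers 1 (15.2 and 31.01 CPM). Of stromal and endothelial markers, 0 of 5 of either list were higher. The summed stromal level was 12.85 CPM in high-scoring and 43.5 CPM in low-scoring cells, and the summed endothelial level was 32.03 CPM in high-scoring cells (0 to 416 over cells) and 110.5 CPM in low-scoring cells (0 to 695). Their part in the Rbl2 and inhibitor values was not tested.

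**Figure D4:**
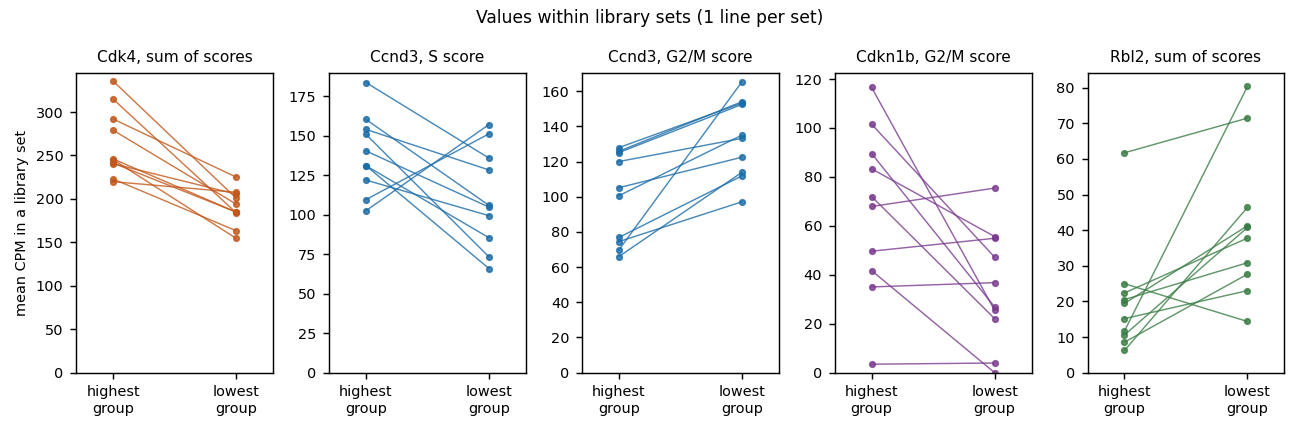
Mean CPM (y) in high-scoring (left) and low-scoring (right) cells of each library set, 1 line per set, for 5 pairs of a gene and a score. Cdk4 is higher in high-scoring cells in 10 of 10 sets by the sum and Ccnd3 lower in 10 of 10 by G2 and M score, while the lines of Cdkn1b cross.

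A list of 46 further G1 genes gives the surroundings, and 45 of them had a count in at least 5% of cells. By S score 10 of the 45 were past 1.5-fold higher and 1 lower, against 6.69% and 30.8% of all genes, and their median ratio was 0.17. Ccne2, the cyclin that acts with Cdk2 after the D cyclins, averaged 47.5 CPM in high-scoring and 16.5 CPM in low-scoring cells (log2 1.47, SD 1.35), and E2f8, a repressor of the E2F family, 80.1 and 31.7 CPM (log2 1.31, SD 0.77), each higher in 9 of 10 sets. Lowest among those counted in at least 20% of cells were Btg2 and Ambra1. Btg2, an antiproliferative gene, stood at -0.35 (SD 0.73). Ambra1, which directs the breakdown of D cyclins, stood at -0.27 (SD 0.59), and both were within the SD.

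By G2 and M score 7 of the 45 were past 1.5-fold higher and 9 lower, where 9.01% and 37.0% of all genes were. Cks1b, a small partner of cyclin-dependent kinases, averaged 169.04 CPM in high-scoring and 71.8 CPM in low-scoring cells (log2 1.22, SD 0.25, higher in 10 of 10 sets). Mdm2, the ubiquitin ligase of p53, gave 0.88 (SD 0.70). E2f1 gave -1.56 (SD 1.76) and Ccne2 -1.51 (SD 1.76), each within its SD over sets. By the sum 8 of 45 were higher and 4 lower, where 10.1% and 38.2% of all genes were. E2f8 averaged 78.5 and 29.4 CPM (log2 1.38, higher in 10 of 10 sets), and Myc 86.2 and 44.5 CPM (log2 0.94, higher in 9 of 10). Ambra1 averaged 83.2 CPM in high-scoring and 124.9 CPM in low-scoring cells (log2 -0.58, SD 0.51, higher in 1 of 10 sets). Fbxo4, a ubiquitin ligase part, gave -0.83, within its SD of 1.66.

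The cycle scores of cells with and without an inhibitor count lay within the SD over sets of each other. In cells with Cdkn1a the S score averaged 1.05 and in cells without it 1.06, and the G2 and M score 1.60 and 1.61. Cells were weighted here by their chance of holding the count after thinning, and sets with a weight under 3 in a class were left out (7 sets remained for Cdkn1a and 6 for Mex3a). For Cdkn2c the G2 and M score averaged 1.67 in cells with a count and 1.58 in cells without, and the S score 1.10 and 1.04, each higher in 8 of 10 sets and within an SD over sets of 0.096 and 0.080. For Cdkn1b the G2 and M score averaged 1.68 in cells with and 1.56 in cells without (higher in 7 of 10 sets, SD 0.15).

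Nor did the other 9 genes pass 1.5-fold between cells with and without an inhibitor count: 0 of 9 for Cdkn1a, where 13.9% of all genes did, 0 of 9 for Cdkn1b, where 7.62% did, and 0 of 9 for Cdkn2c, where 11.6% did. Cdkn1a itself was 9.87 CPM in cells with Cdkn1b and 14.9 CPM in cells without (log2 -0.55, SD 1.302). For Mex3a, the gene in the study's title, 0 of 10 passed between cells with and without a count, where 22.2% of all genes did. The lowest ratio was that of Cdkn1a, at 8.90 CPM in cells with Mex3a and 12.9 CPM in cells without (log2 -0.49, SD 1.54), and Ccnd3 gave 94.8 and 116.9 CPM (log2 -0.30, SD 0.51).

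By Lgr5 level 0 of the 10 genes passed 1.5-fold, where 16.4% of all genes did. Cdk4 averaged 226.2 CPM in high-Lgr5 and 256.4 CPM in low-Lgr5 cells (log2 -0.18, SD 0.27), and Cdk6 287.8 and 254.1 CPM (log2 0.18, SD 0.21). By a secretory score, over Paneth and goblet genes, 2 of 10 passed, where 20.4% of all genes did. Cdkn1a averaged 18.5 CPM in high-scoring and 10.7 CPM in low-scoring cells (log2 0.74, SD 2.63), and Rbl2 36.2 and 22.9 CPM (log2 0.64, SD 2.17). By an absorptive score, over enterocyte genes, 1 of 10 passed, where 24.7% did. It was again Cdkn1a, at 17.2 and 9.76 CPM (log2 0.76, SD 2.53). In each case the SD over sets is larger than the ratio. Cells with Cdkn1a also had more Paneth, goblet and enterocyte counts than cells without: 7 of 8, 6 of 8 and 9 of 11 genes were higher, and the summed Paneth level was 1633 and 1426 CPM. Higher too were 6 of 7 tuft markers (summed 211.3 and 160.6 CPM) and 4 of 6 enteroendocrine markers (38.6 and 19.1 CPM). Of stem markers 4 of 12 were higher, of immune 3 of 6, of stromal 2 of 5 and of endothelial 3 of 5. The part of these markers in the Cdkn1a values was not tested.

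**Figure D5:**
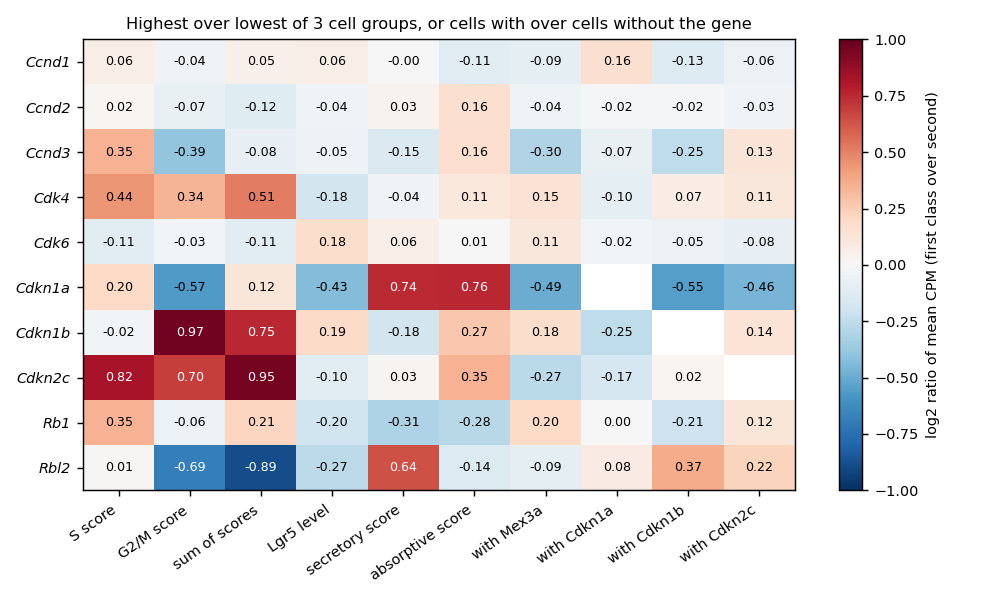
Heat map of the log2 ratio of mean CPM for each gene (rows) in each of the 10 comparisons (columns); red is higher in the first-named class, blue lower. Cdk4 reads 0.51 and Rbl2 -0.89 by the sum of both cycle scores, and every value by Lgr5 level lies within 1.5-fold.

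Across cells rho between the 10 genes was small. Of 45 pairs, Spearman rho over cells of at least 19169 counts ran from -0.11 (Ccnd2 with Rb1) to 0.22 (Ccnd2 with Cdk6), and 1 pair was above 0.15. The pair Ccnd2 and Cdk6 was above 0 in 10 of 10 sets, but both genes also had a negative rho with total counts (-0.23 and -0.11). Cdk4 had a rho of 0.26 with the S score and 0.20 with the G2 and M score. Cdk6 had 0.24 with a score of stem cell genes, and Cdkn1b 0.22 with the G2 and M score.

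Genes with the most similar pattern were sought among 7481 genes counted in at least 50% of cells. For Cdk4 they were Gstp1 at a rho of 0.39, Traf5 at 0.38, Gstp-ps, Rps16-ps2 and Ubb, where 99% of genes were below 0.29. Gstp1 and Gstp-ps are near-identical copies that can share reads. For Ccnd1 they were Hdac11 at 0.26, Nolc1, Gnl3, Crls1 and Rpl17, and for Ccnd3 Arhgap12 at 0.20, Elof1, Ube2f, Lig1 and Skap2. For Cdk6 they were Eef1d at 0.25, Slc12a2, Sf3b2, Srrm2 and Chd7. For Ccnd2 they were Lgals2 at 0.30, Rpl37rt, Rack1, Kcne3 and Rps3, all with a negative rho with total counts, from -0.74 to -0.42.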

How the data were processed

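Gene counts of 400 single cells were used as the authors deposited them, whole numbers per gene and cell, not normalized. Per the submitters' processing notes, reads were placed on GRCm38.p4. Which aligner and counter were used, and whether strand or molecular tags were, is not given in the sources used here. All 10 genes, lists and comparisons were chosen with earlier results of these data known. Identifiers were matched to GENCODE M21 (33219 symbols, 25822 with the same version, 27 repeated). CPM, shares and ratios were computed with Python 3.11.15, numpy 2.4.6, scipy 1.17.1 and pandas 2.3.3. Thinning took the exact expectation over draws, not 1 draw. Ratios took genes counted in at least 5% of cells. Values within a set needed at least 3 cells per class. From the list of further G1 genes, the 2 highest and 2 lowest ratios among genes counted in at least 20% of cells are named, and 5 similar genes for each cyclin and kinase. The computations were tested on simulated data. Cells under 10000 counts (20) were left out. Alternatives changed the pseudocount, thinning depth, score classes, cells used and count scale. Intervals cover counting error only.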

Additional observations from a re-analysis of the deposited data

Results flagged for a closer look

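Of 20 groups of 10 library sets, mean CPM and share of cells for each of the 10 genes, 2 had a set far from the others. Chance flags about 1 in 20 groups. Ccnd2 averaged 458.2 CPM in set 4, and the next highest set averaged 412.8 CPM. Set 4 had the lowest median total, 29070 counts, and Ccnd2 CPM had a rho of -0.29 with total counts over cells. Cdk4 had a count in 97.3% of cells in set 10 and in 100% of cells in each other set, a difference of 1 cell.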

How the results depend on the processing

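Of 2282 values recomputed under the alternatives, 2231 moved by less than their spread, 51 moved further and 0 changed direction in a called value. All 702 ratios of the 10 genes under other settings moved from the reported ratio by less than its SD over sets, and 48 changed sign, with ratios of at most 0.27. That SD is wide for genes of few counts (2.16 for Cdkn1a by S score), so for them staying within it shows little. With 1 library set left out, the Cdkn1a ratio by S score ran from -0.34 to 0.45. The number of genes past 1.5-fold rests on few genes. With groups drawn within 10 bins of total counts it was 2 by S score and 1 by Lgr5 level, against 1 and 0. With 10 CPM added it was 1 by G2 and M score, 0 by secretory and 0 by absorptive score. With 2 equal groups in place of 3 it was 1 by the sum, 0 by secretory and 0 by absorptive score. With groups drawn within each set it was 1 by secretory and 0 by absorptive score. Thinning to the 25th percentile gave 0 by secretory score and 1 for cells with Cdkn2c. Leaving out the 5% of cells with the most genes gave 1 for cells with Mex3a. Leaving out 1 library set at a time gave 1 to 4 genes by G2 and M score (1 without set 1), 0 to 1 by Lgr5 level (sets 2 and 8), and 0 to 2 by secretory score (0 without set 1 or 9). It gave 0 to 1 by absorptive score (sets 9 and 10), and 0 to 1 for cells with Mex3a (sets 5 and 9), Cdkn1b (sets 3, 4, 8 and 9) and Cdkn2c (set 1). The cause was not tested. The ratio of Ccnd2 to Ccnd1 counts stayed between 2.37 and 2.58 with a set left out, and was 2.75 with counts mapped back from a saturating scale. No paired analysis was possible because there is 1 group. At 1 sample and a median of 32112 counts, small differences of Cdkn1a, Cdkn2c and Rbl2 were not detectable.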

Other observations

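Levels of the further G1 genes put the 10 genes in their surroundings. Per kb of exon, if reads cover whole transcripts, Skp1a, a core part of ubiquitin ligases, stood at 123.1 CPM per kb and Cks1b at 108.8, both above Cdk4. Cyclin E genes were lower, with Ccne2 at 7.73 and Ccne1 at 4.22 CPM per kb. The other inhibitor genes on the list were rare: Cdkn2d (p19) had a count in 25.8% of cells, Cdkn1c (p57) in 7.89%, Cdkn2a in 7.37% and Cdkn2b in 4.74%, all inside the range of genes that gut epithelium should lack.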
